A study of Solanum lycopersicum with 27 samples.

Results

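Fruit of the tomato mutant dml2-3 was compared between 34 and 25 days post anthesis (dpa), the days since the flower opened. The comparison uses 6 RNA sequencing libraries, chosen by genotype and age in the labels, out of 27 in the series. There were 3 libraries of dml2-3 at each age. The plants were Solanum lycopersicum of the cultivar Ailsa Craig, received no treatment, and gave total RNA from fruits. The labels call 34 dpa the breaker stage, at which wild-type fruit first shows ripening colour. For reference, wild type (WT) and the double mutant rin/tdr4-1 were sampled in 3 libraries at each of both ages, and rin-1, tdr4-1 and nor-1 in 3 libraries each at 34 dpa only. The labels do not say how the dml2-3 allele was made, nor whether the replicates were separate plants, so p-values measure the spread between libraries, which may be technical.

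DML2 is a DNA demethylase, an enzyme that cuts 5-methylcytosine out of DNA so that repair puts plain cytosine in its place. In tomato fruit it is known to act on the promoters of ripening genes, and fruit without it is known to stay green and firm long after WT fruit has ripened. RIN, TDR4 and NOR are transcription factors known to regulate tomato ripening, RIN and TDR4 of the MADS-box family and NOR of the NAC family. Comparing dml2-3 fruit with itself at the younger age asks what still changes with age when this enzyme is mutated.

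Each library holds 1 FPKM value (fragments mapped to a gene, scaled by its length and by the size of the library) for each of 34075 genes. Testing covered the 18906 genes that reached 1 FPKM in 3 or more libraries. FPKM columns of the 6 dml2-3 libraries summed to between 863193 and 1025480, and read numbers behind them are unknown. The identifiers could not be paired with gene names, so the DML2 transcript and fruit markers do not check the labels, and roles of single genes are not given.

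Replicate 3 of dml2-3 at 25 dpa stood apart from the other libraries of its group. In log2(FPKM + 1) it correlated across the tested genes with replicates 1 and 2 at 0.917 and 0.916, whereas those correlated with each other at 0.990. It correlated better with the mean of dml2-3 at 34 dpa (0.945) than with the mean of its own group's other libraries (0.919). With WT at 25 dpa it correlated at 0.914, against 0.892 and 0.893 for replicates 1 and 2. It lay over 1 log2 unit above the mean of replicates 1 and 2 for 1112 genes and below it for 1359 genes, together 13.1% of those tested. In each library of the other 8 groups this share was at most 1.60%. Calls and counts are therefore given with and without this library, or by replicate. No marker gene could check the ages, so the direction of every dml2-3 change rests on the labels, and whether libraries were exchanged between the ages was not tested.

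Between the ages, fruit of dml2-3 lost expression of more genes than it gained, as the values were deposited. In a limma fit to all 27 libraries, 6387 genes (33.8% of those tested) were called at a Benjamini-Hochberg adjusted p under 0.05, of which 2269 (12%) were higher and 4118 (21.8%) lower at 34 dpa. Without replicate 3, 8398 genes (44.4%) were called, 2850 (15.1%) higher and 5548 (29.3%) lower. Both fits called 5561 genes (29.4%) in the same direction, 1951 (10.3%) higher and 3610 (19.1%) lower, and 0 genes in opposite directions. These shared calls are said to hold. The fits differ only by replicate 3, so opposite calls were hardly possible, and the second fit gives a call no independent support. At 2-fold or more in both fits, 200 genes (1.06%) rose and 638 (3.37%) fell.

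The excess of falls depended on the scaling between libraries. Dividing each library by its median-of-ratios size factor gave 3102 rises (16.4%) against 3133 falls (16.6%), of which 2731 and 2704 held without replicate 3. Quantile scaling gave 3924 rises and 2627 falls, and rescaling all libraries to equal totals gave 4698 rises and 2109 falls. The median log2 change over all genes was -0.081 as deposited, -0.018 with size factors and 0.077 with equal totals. The number of calls depended on how the spread was estimated. A limma fit to the 6 dml2-3 libraries alone called 2285 genes (12.1%), 1042 higher and 1243 lower, and the same fit without replicate 3 called 8511, 2970 higher and 5541 lower.

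The change with age was smaller in dml2-3 than in the other genotypes sampled at both ages. The median size of the change, in either direction, was 0.21 log2 units in dml2-3 (0.23 without replicate 3), against 0.69 in WT and 0.35 in rin/tdr4-1, and 0.20, 0.61 and 0.34 with size factors. In WT 77% of the tested genes were called and in rin/tdr4-1 58.7%. At 2-fold or more, 950 genes were called in dml2-3 (1479 without replicate 3), 6658 in WT and 2499 in rin/tdr4-1.

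By a fixed rule, 2 genes that rose and 2 that fell are named. They had to hold, to reach a mean of 10 FPKM at 1 of the ages, and to show no overlap between the libraries of the ages. They led the ranking by the smaller of their log2 changes with and without replicate 3, a measure that depends on the pseudocount of 1 for genes listed at 0. The libraries of the ages did not overlap for 2688 genes (14.2%) that were higher and 4295 (22.7%) that were lower at 34 dpa. The rule left 1480 candidates that rose and 1876 that fell.

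Solyc09g089930.3 rose in dml2-3 while it fell in both other genotypes. It stood at 2.68, 2.85 and 4.40 FPKM in replicates 1 to 3 at 25 dpa and at 35.5, 45.6 and 42.4 FPKM at 34 dpa. All libraries of 34 dpa lay far above all of 25 dpa, with replicate 3 on the side of its own group. The change was 3.31 on the log2(FPKM + 1) scale (SE 0.18, limma adjusted p = 1.68e-11), and 3.48 (SE 0.18, adjusted p = 2.77e-12) without replicate 3.

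In WT, Solyc09g089930.3 went from 10.2 ± 0.797 FPKM (mean ± SD, n = 3) to 0.58 ± 0.42 FPKM, which on the log2 scale is -2.86 (SE 0.18, adjusted p = 3.52e-12 by limma). In rin/tdr4-1 it went from 18.6 ± 1.96 to 2.03 ± 0.584 FPKM, a change of -2.71 (SE 0.18, adjusted p = 6.54e-11). The dml2-3 change exceeded that of WT by 6.16 (SE 0.25, adjusted p = 6.80e-15) and that of rin/tdr4-1 by 6.01 (SE 0.25, adjusted p = 1.02e-13), and without replicate 3 by 6.33 and 6.19. Among the single mutants at 34 dpa, the gene was at 21.3 ± 1.45 FPKM in rin-1, 5.15 ± 0.947 in tdr4-1 and 3.53 ± 0.611 in nor-1. Its highest level in any group was thus in dml2-3 at 34 dpa (41.2 ± 5.16 FPKM).

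Solyc08g045750.1 was listed at 0 in all 3 libraries of dml2-3 at 25 dpa and at 24.9, 23.6 and 25.8 FPKM at 34 dpa. Limma called the rise (adjusted p = 0.0137, and 0.0212 without replicate 3), and no fold is given against a group listed at 0. In 4 other groups its values jumped between 0 and higher levels among replicates, and the part of such jumps in the dml2-3 split was not tested. They were 0, 0 and 30.2 FPKM in WT at 25 dpa, 14.8, 0 and 45.3 FPKM in rin/tdr4-1 at 25 dpa, 0, 29.1 and 69.9 FPKM in rin/tdr4-1 at 34 dpa, and 5.08, 0 and 12.8 FPKM in tdr4-1. WT at 34 dpa, rin-1 and nor-1 were listed at 0 throughout. Its change differed from that of WT (limma adjusted p = 0.00772, and 0.0117 without replicate 3), while the difference from rin/tdr4-1 missed the threshold (adjusted p = 0.0841, and 0.0971 without replicate 3).

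Solyc11g010520.1 fell from 48.9, 80.3 and 110.4 FPKM at 25 dpa to a listed 0 in all 3 libraries at 34 dpa. Replicate 3 was the highest of the libraries at 25 dpa. The fall was called with it (limma adjusted p = 1.23e-08) and without it (adjusted p = 3.91e-08). The other genotypes went the opposite way. In WT the gene was listed at 0 in every library at 25 dpa and stood at 1.69, 3.39 and 4.11 FPKM at 34 dpa (limma adjusted p = 0.00210). In rin/tdr4-1 it went from 0, 0 and 0.29 FPKM to 5.77, 7.73 and 66.2 FPKM (adjusted p = 2.91e-06). Both differences from the dml2-3 change were called, with limma adjusted p = 3.30e-09 against WT and 6.30e-10 against rin/tdr4-1, and 1.02e-08 and 8.90e-10 without replicate 3. At 34 dpa it was present in rin-1 (12.9 ± 4.13 FPKM), tdr4-1 (7.33 ± 1.28 FPKM) and nor-1 (22.2 ± 6.43 FPKM), so dml2-3 was the only group of this age with the gene listed at 0 throughout.

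Solyc09g097760.3 split the libraries at 25 dpa. It was at 1537 and 1344 FPKM in replicates 1 and 2 but at 8.18 FPKM in replicate 3, and at 7.44, 2.30 and 3.99 FPKM at 34 dpa. Replicate 3 thus lay beside the 34 dpa libraries, just above the highest of them. The log2 change was -5.69 (SE 1.12, limma adjusted p = 0.000516), and -8.12 (SE 0.38, adjusted p = 6.19e-13) without replicate 3. In a fit to the 6 dml2-3 libraries alone the call ended (adjusted p = 0.154). Over all alternatives its adjusted p ran from 5.88e-13 to 0.195.

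In WT this gene stood at 10.5 ± 2.82 and 15.1 ± 3.99 FPKM at the 2 ages, and in rin/tdr4-1 at 7.35 ± 5.52 and 7.46 ± 1.29 FPKM, with limma adjusted p of 0.706 and 0.882 between the ages. These p-values use the spread over all groups, which replicate 3 of dml2-3 widens. Without it the SE in WT went from 1.12 to 0.34 and the limma adjusted p were 0.195 and 0.591. With size factors and without it, WT was called higher (log2 change 1.04, limma adjusted p = 0.00828). The dml2-3 change of Solyc09g097760.3 was lower than that of WT by a log2 difference of -6.18 (SE 1.59, adjusted p = 0.00167) and than that of rin/tdr4-1 by -5.91 (SE 1.59, adjusted p = 0.00374), which without replicate 3 were -8.61 and -8.34. In a fit to the 12 libraries of dml2-3 and rin/tdr4-1 alone the latter call ended (adjusted p = 0.0541). At 34 dpa it was abundant in rin-1 (249 ± 26.3 FPKM) and nor-1 (269.8 ± 24.4 FPKM), lower in tdr4-1 (75.5 ± 6.37 FPKM), and lowest in dml2-3 (4.58 ± 2.62 FPKM). The levels in rin-1 and nor-1 overlapped, as did those in dml2-3 (2.30 to 7.44 FPKM) and rin/tdr4-1 (6.14 to 8.71 FPKM) at that age.

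**Figure D1:**
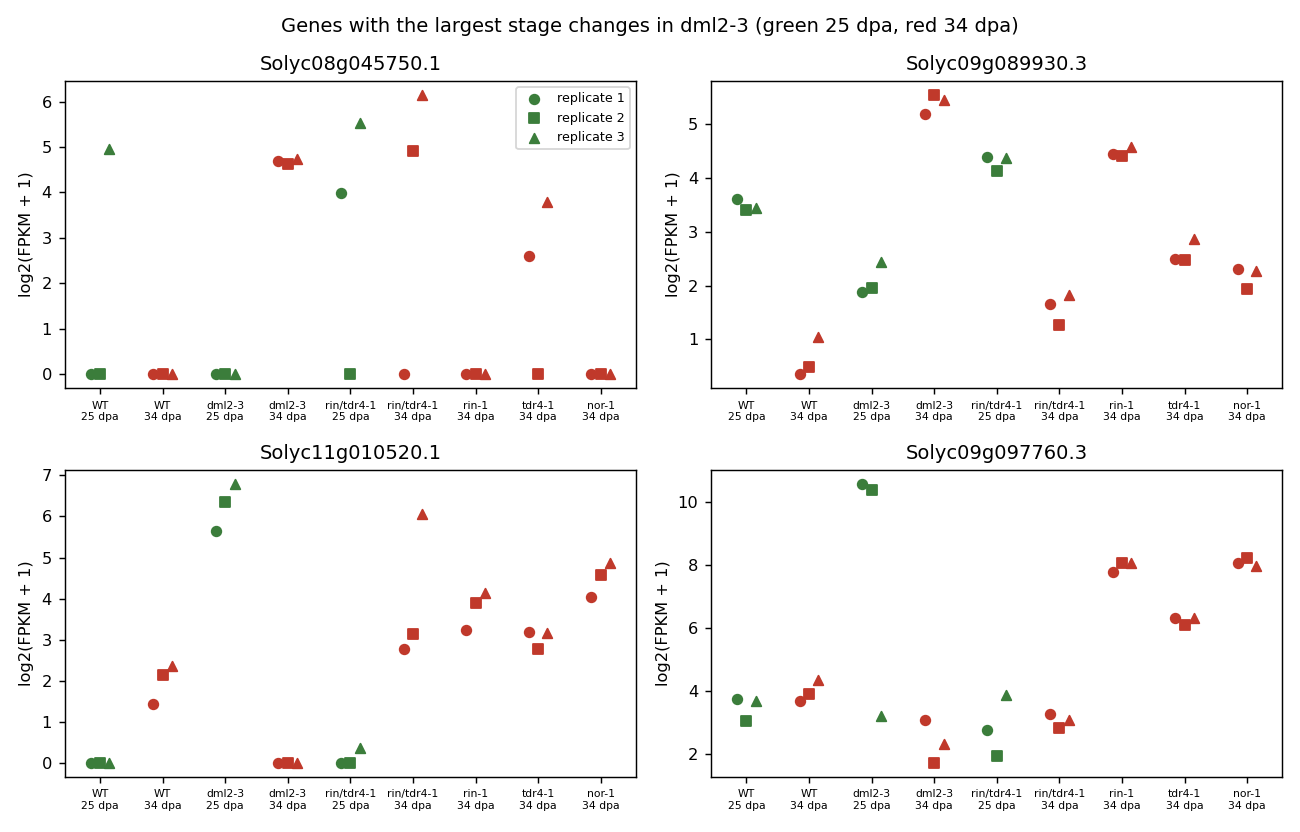
Level in log2(FPKM + 1) of the 4 named genes in each of the 27 libraries, by group, with green for 25 dpa, red for 34 dpa and a marker shape for each replicate. Solyc09g097760.3 is at 1537 and 1344 FPKM in replicates 1 and 2 of dml2-3 at 25 dpa and at 8.18 FPKM in replicate 3, while the other 3 genes keep replicate 3 with its group.

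A single transcript made up much of the signal at 25 dpa. The gene with the highest mean over the 6 dml2-3 libraries held 11.5%, 10.9% and 5.57% of the FPKM sum in replicates 1 to 3 at 25 dpa. At 34 dpa the same gene held 2.31%, 2.97% and 2.76%, and in replicate 1 of that age another gene was higher, at 2.48%. Its level fell from 118026, 110998 and 53745 FPKM to 19946, 26520 and 24301 FPKM, which on the log2 scale is -1.93 (SE 0.29, adjusted p = 3.14e-05 by limma), and -2.29 (SE 0.16, adjusted p = 1.96e-10) without replicate 3. This gene was singled out after its values were seen. In rin-1 at 34 dpa the same gene was at 158366 to 175083 FPKM, and in rin/tdr4-1 it was higher at 34 dpa (83773 to 92755 FPKM) than at 25 dpa (40713 to 44624 FPKM). WT was also higher at 34 dpa (40084 to 48969 FPKM) than at 25 dpa (23703 to 28076 FPKM). At 34 dpa nor-1 was at 85421 to 99068 FPKM and tdr4-1 at 56907 to 74840 FPKM.

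The 100 most abundant genes of a library held 29.9% ± 2.04 of its FPKM sum at 25 dpa and 22.7% ± 0.651 at 34 dpa (SD, n = 3 each). The libraries did not overlap, and the two-sided exact permutation test gave p = 0.1, the smallest value that 20 assignments of 6 libraries allow. The difference was -7.19 percentage points, and -8.36 without replicate 3. The share of the single most abundant gene of each library alone differed by -6.58 points. Most of the difference thus lay in the top gene, so it is not a separate result about 100 genes. WT went the other way, with shares between 23.5% and 26.4% in its younger and between 40.8% and 44.3% in its older fruit. Genes at 1 FPKM or more numbered 17365 ± 23.3 in dml2-3 at 25 dpa and 16754 ± 110.5 at 34 dpa, again without overlap and with an exact permutation p = 0.1. In WT they numbered between 17482 and 17556 in the younger and between 15117 and 15315 in the older fruit.

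The direction of change depended on abundance. Of 171 genes with a mean over 500 FPKM in dml2-3, 64 held as higher (37.4%) and 33 as lower (19.3%). Of 1540 genes between 100 and 500 FPKM, 366 held as higher (23.8%) and 259 as lower (16.8%). Of 3474 genes between 1 and 5 FPKM, 219 held as higher (6.30%) and 769 as lower (22.1%). With size factors the last class still held more falls (634) than rises (239), and the class from 100 to 500 FPKM more rises (466) than falls (190). Of the 10 most abundant genes at 25 dpa, 3 held as lower and 0 as higher, where 19.1% and 10.3% of all tested genes did. These 10 were picked on their values at 25 dpa, which favours falls, so no trend is read from them.

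The genes that WT fruit raises between these ages were next followed in dml2-3. The WT comparison shares no library with the dml2-3 comparison. A WT call at 2-fold or more that stood under both scalings, the deposited one and size factors, defined 1030 WT-risen and 3706 WT-fallen genes. The WT ages differ in days as well as in ripening, so these names mark only a change in WT.

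More WT-risen genes fell than rose in dml2-3. Of the 1030, 396 (38.4%) were called lower and 72 (6.99%) higher at 34 dpa, where 21.8% and 12% of all tested genes were. Their median log2 change was -0.28 beside -0.081 over all genes. Without replicate 3, 554 were lower and 107 higher (median -0.30), where 29.3% and 15.1% of all genes were. With size factors 340 were lower and 95 higher (median -0.21, all genes -0.018), where 16.6% and 16.4% of all genes were. In the fit to the 6 dml2-3 libraries alone, 130 were lower and 36 higher, where 6.57% and 5.51% of all genes were. In that fit without replicate 3, 537 were lower and 92 higher.

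WT-fallen genes went both ways in dml2-3. Of the 3706, 482 (13.0%) were called higher and 802 (21.6%) lower, shares close to those of all tested genes. Without replicate 3, 920 (24.8%) were higher and 986 (26.6%) lower, beside 15.1% and 29.3% of all genes. With size factors 578 (15.6%) were higher and 634 (17.1%) lower, beside 16.4% and 16.6%. With size factors and without replicate 3 they were 1110 (30.0%) and 803 (21.7%), beside 21.4% and 21.7%. The share of rises thus stood above that of all genes in the fits without replicate 3, and near it in the fits with it. The median log2 change of these genes was -0.10 in dml2-3, or -0.014 without replicate 3, against -2.17 in WT.

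Each library was also placed along the WT change, on a scale where the mean of WT at 25 dpa is 0 and the mean of WT at 34 dpa is 1. Over the WT-risen genes, dml2-3 lay at 0.243, 0.241 and 0.113 in replicates 1 to 3 at 25 dpa and at 0.0443, 0.0297 and 0.0240 at 34 dpa. All libraries of the older fruit thus lay nearer to WT at 25 dpa than any of the younger fruit, with replicate 3 between. The means were 0.199 ± 0.0740 and 0.0327 ± 0.0105 (SD, n = 3 each), and the libraries did not overlap, with a two-sided exact permutation p = 0.1, the smallest possible. Without replicate 3 the mean at 25 dpa was 0.242. With size factors they were 0.166 ± 0.0477 and 0.0429 ± 0.00498 (exact permutation p = 0.1).

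Over the WT-fallen genes, the same libraries lay at 0.292, 0.288 and 0.207 at 25 dpa and at 0.291, 0.309 and 0.321 at 34 dpa. Here the ages overlapped (two-sided exact permutation p = 0.2), and the mean at 25 dpa without replicate 3 was 0.290. In rin/tdr4-1 both gene classes moved toward WT at 34 dpa, with WT-risen genes placed between 0.0461 and 0.0640 in the younger and between 0.161 and 0.180 in the older fruit, and WT-fallen genes between 0.182 and 0.191 and then between 0.400 and 0.407. At 34 dpa the mutants rin-1 (0.402 to 0.417), nor-1 (0.605 to 0.614) and tdr4-1 (0.930 to 0.939) all lay above dml2-3 over the WT-risen genes.

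**Figure D2:**
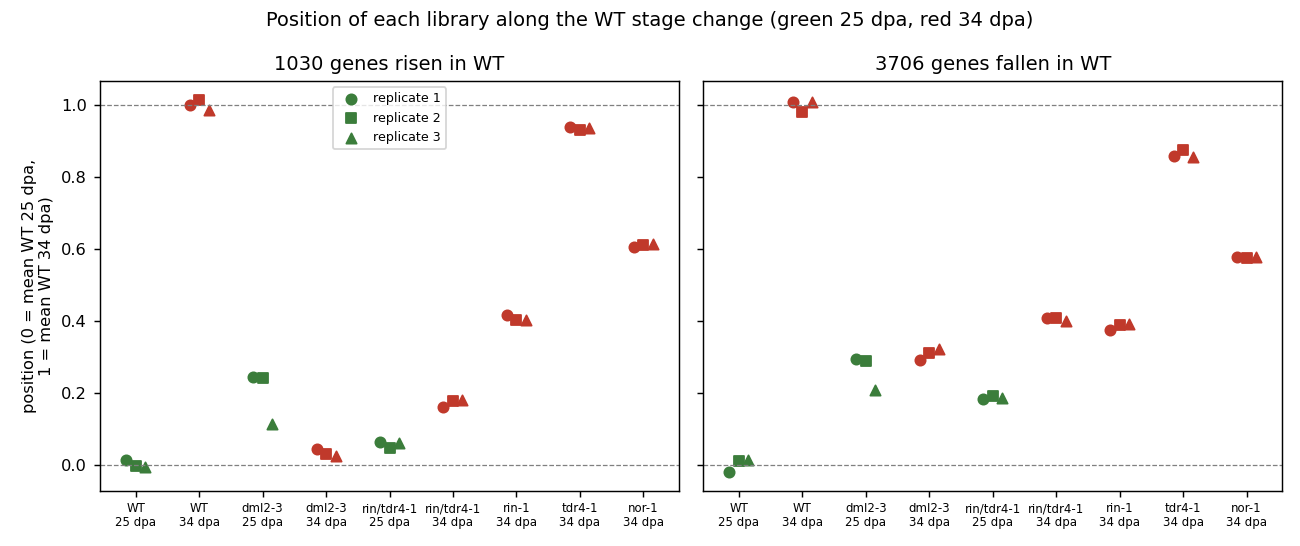
Position of each of the 27 libraries along the WT change, with 0 for the mean of WT at 25 dpa and 1 for the mean of WT at 34 dpa, over 1030 WT-risen genes (left) and 3706 WT-fallen genes (right), with green for 25 dpa, red for 34 dpa and a marker shape for each replicate. On the left, the younger dml2-3 libraries lie between 0.113 and 0.243 and the older ones between 0.0240 and 0.0443.

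Over all genes, the changes with age in dml2-3 and in WT were nearly unrelated. Across the 18906 genes, which are not independent replicates and share the library make-up of each group, Pearson's r was -0.090 and Spearman's rho -0.048. Without replicate 3 they were -0.15 and -0.14, and with size factors -0.069 and -0.011. Among the 4420 genes that held in dml2-3 and were called in WT, 2206 changed in the same direction and 2214 in opposite directions. Falls prevailed among the WT calls (11656 lower, 2899 higher) and among those that held in dml2-3 (3610 lower, 1951 higher). Unrelated changes would therefore share a direction more often than not, so the even split was a deficit of shared directions as deposited. With size factors the directions were near balance in WT (6799 higher, 7316 lower) and in dml2-3 (2731 and 2704 held), so an even split would be no deficit. There 2056 genes (48.1%) changed in the same direction and 2221 (51.9%) in opposite directions, so the deficit was small and depended on the scaling. For rin/tdr4-1 the same relation with dml2-3 had r = -0.14 and rho = -0.099, while rin/tdr4-1 and WT were related with r = 0.32 and rho = 0.28.

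**Figure D3:**
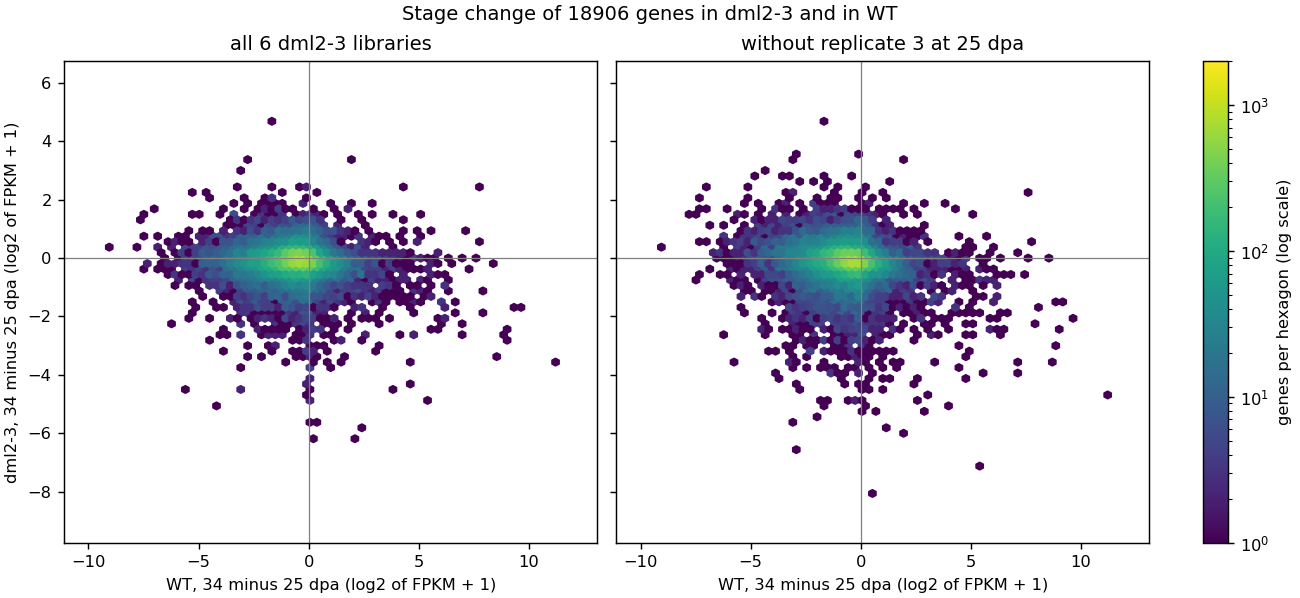
Change with age of 18906 genes in WT (x axis) and in dml2-3 (y axis), as log2(FPKM + 1) at 34 minus 25 dpa, with all dml2-3 libraries (left) and without replicate 3 at 25 dpa (right), where colour gives the number of genes per hexagon on a log scale. The cloud is wide along WT and narrow along dml2-3, and Pearson's r is -0.090 on the left and -0.15 on the right.

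A direct test of the difference between the dml2-3 and the WT change called 13073 genes (69.1%), 9858 (52.1%) higher and 3215 (17%) lower in dml2-3 relative to WT. Without replicate 3 it called 13740 (72.7%), 9899 (52.4%) higher and 3841 (20.3%) lower. This split again followed the scaling, with 6664 higher and 6154 lower by size factors and 5925 higher and 6648 lower by quantile scaling, as the median difference went from 0.45 as deposited to 0.027 with size factors and -0.060 with quantile scaling. The difference from the rin/tdr4-1 change was called for 10097 genes (53.4%), 4488 (23.7%) higher and 5609 (29.7%) lower, and for 11758 (62.2%) without replicate 3, 5027 (26.6%) higher and 6731 (35.6%) lower. Both differences use the same dml2-3 libraries. With equal totals that split was 6129 higher and 3824 lower.

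Genes that rose in rin/tdr4-1 fell more often than rose in dml2-3, as the WT-risen genes did. By the same definition 954 genes rose in rin/tdr4-1, and of these 366 (38.4%) were lower in dml2-3 and 68 (7.13%) higher, beside 21.8% and 12% of all genes, with a median log2 change of -0.32. Without replicate 3 these counts were 571 (59.9%) and 87 (9.12%), beside 29.3% and 15.1% (median -0.45). Of 1380 genes that fell there, 206 (14.9%) were higher and 265 (19.2%) lower in dml2-3, and without replicate 3 423 (30.7%) were higher and 339 (24.6%) lower.

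Read from the other side, the 200 genes that rose 2-fold or more in dml2-3 fell in WT and rin/tdr4-1 more often than all tested genes did. The excess was small in WT as deposited. In WT, 138 of them were called lower (69% beside 61.7% of all tested genes) and 27 higher (13.5% beside 15.3%). With size factors 111 were lower in WT (38.7% of all genes were) and 56 higher (36% of all genes were), and their median log2 change there was -0.60 beside -0.034 for all genes. In rin/tdr4-1, 112 were lower (56% beside 30.1%) and 37 higher (18.5% beside 28.6%). As deposited, 84 of the 200 fell in both WT and rin/tdr4-1, and 3 rose in all 3 genotypes. Among the 18906 tested genes outside these 200 and the 638 that fell, 4092 fell in both and 1099 rose in both. Falling in both was thus a larger share of the 200 than of the other genes, and rising in both a smaller share.

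The 638 genes that fell 2-fold or more in dml2-3 were called lower in WT less often than all tested genes. There 118 were higher (18.5% beside 15.3%), 272 lower (42.6% beside 61.7%) and 248 not called. In rin/tdr4-1, 217 were higher (34.0% beside 28.6%) and 127 lower (19.9% beside 30.1%). Of the 638, 61 rose in both other genotypes, 74 fell in all 3, and 137 had no call in either. Among the 18906 tested genes outside these 638 and the 200 that rose, 1099 rose in both, 4092 fell in both and 2018 had no call in either. Falling in both was thus a smaller share of the 638 than of the other genes. Rising in both and having no call in either were larger shares.

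The levels of these genes in other groups were read as medians over genes. The other groups entered the choice of genes only through the filter and the spread shared by all groups. The genes that rose in dml2-3 had medians of 12.1, 11.6 and 18.0 FPKM in its replicates at 25 dpa and 35.8 to 36.9 FPKM at 34 dpa. In WT they were at 11.0 to 12.1 FPKM at 25 dpa, like replicates 1 and 2 of dml2-3, and at 3.28 to 3.98 FPKM at 34 dpa. At that age they were at 4.31 to 4.48 FPKM in rin-1, 3.17 to 3.57 in tdr4-1, 3.89 to 4.39 in nor-1 and 6.62 to 6.99 in rin/tdr4-1.

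The genes that fell in dml2-3 had medians of 11.7 and 12.1 FPKM in replicates 1 and 2 at 25 dpa, 4.76 FPKM in replicate 3 and 1.53 to 2.08 FPKM at 34 dpa. In WT they were at 4.93 to 5.14 FPKM at 25 dpa, the level of replicate 3, and at 1.82 to 2.12 FPKM at 34 dpa. WT thus overlapped dml2-3 at 34 dpa. The medians at that age were 4.92 to 6.07 FPKM in rin-1, 5.52 to 5.99 in nor-1, 5.54 to 6.92 in rin/tdr4-1 and 3.39 to 3.85 in tdr4-1. Both gene sets were chosen on the dml2-3 values, the falling one for low values at 34 dpa and high ones in replicates 1 and 2. Where the dml2-3 libraries stand against other groups therefore follows in part from that choice and is no separate result.

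**Figure D4:**
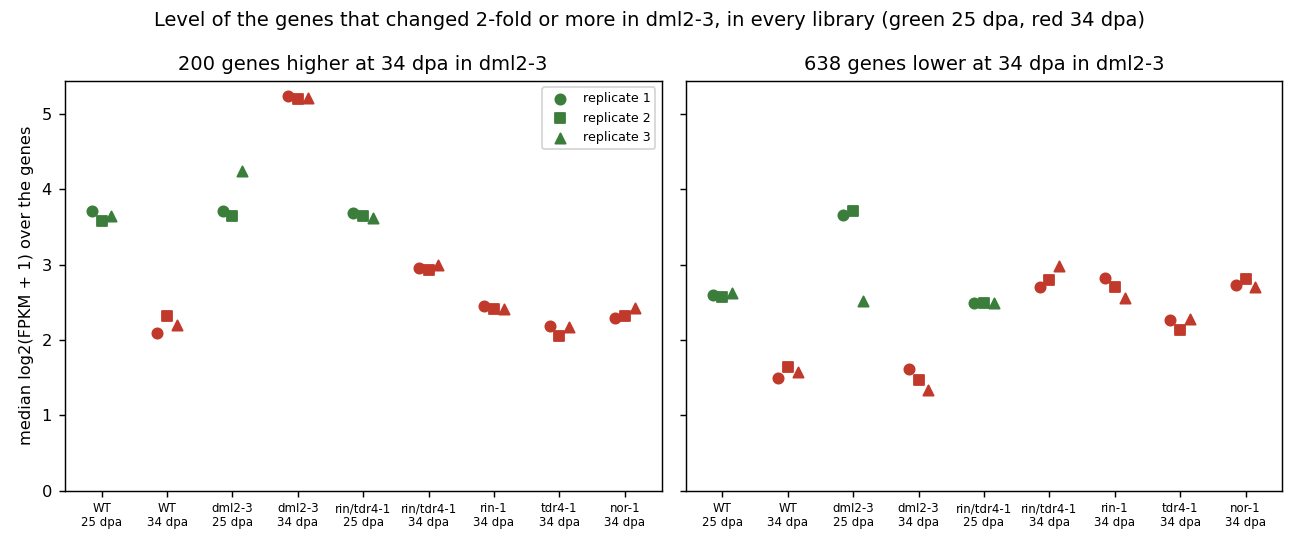
Median log2(FPKM + 1) over the 200 genes that rose (left) and the 638 that fell (right) 2-fold or more in dml2-3, in each of the 27 libraries, with green for 25 dpa, red for 34 dpa and a marker shape for each replicate. The dml2-3 means chose the genes, and the other groups entered that choice only through the filter and the shared spread. The medians of the rising genes in WT go from 11.0 to 12.1 FPKM down to 3.28 to 3.98 FPKM.

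How far replicate 3 shared the change was read for genes called at 2-fold or more without it. For each, its place was set between the mean of replicates 1 and 2 (0) and the mean of dml2-3 at 34 dpa (1). For the 1134 genes that were lower at 34 dpa, replicate 3 lay nearer to the 34 dpa mean or beyond it in 843 cases (74.3%), with a median place of 0.90. For the 345 that were higher, this was so in 154 cases (44.6%), with a median of 0.43. Of the 178 WT-risen genes among the falls, replicate 3 lay nearer to or beyond the 34 dpa mean in 126 (70.8%, median 0.92). Of the 171 WT-fallen genes among the rises it did so in 116 (67.8%, median 0.77). For the 305 WT-fallen genes among the falls this held in 221 (72.5%), and for the 13 WT-risen genes among the rises in 2 (15.4%). Over all genes replicate 3 thus lay closer to the older fruit for the falls than for the rises. Among the falls the shares of both WT classes were alike, while among the rises they differed, with few WT-risen genes.

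**Figure D5:**
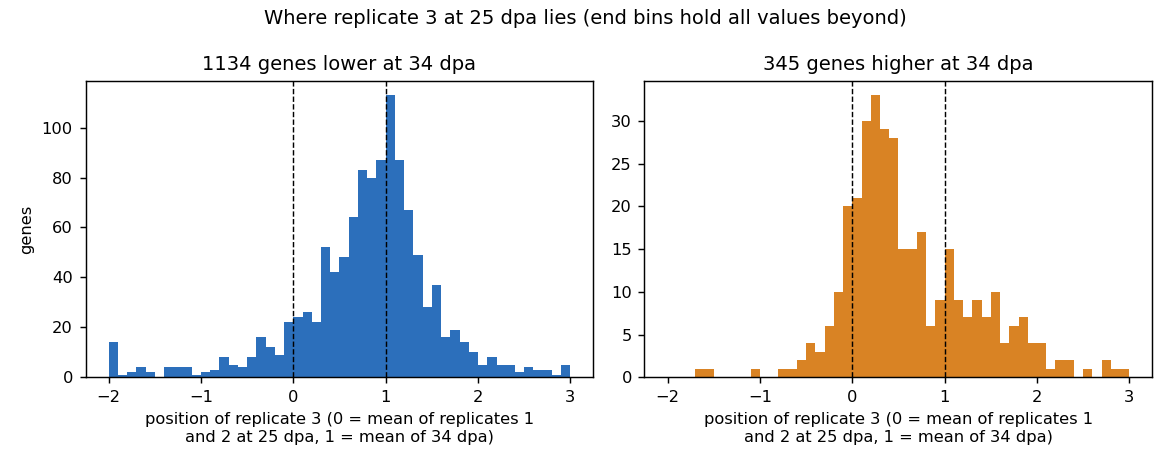
Number of genes by the place of replicate 3 of dml2-3 at 25 dpa between the mean of replicates 1 and 2 at 25 dpa (0) and the mean of dml2-3 at 34 dpa (1), both dashed, for 1134 genes lower (left) and 345 genes higher (right) at 34 dpa in the fit without it. The median is 0.90 on the left and 0.43 on the right.

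Complete switches were few. Below 1 FPKM in all libraries of one age and at 10 FPKM or more in all of the other, 1 gene was switched on in dml2-3, which was Solyc08g045750.1, and 5 were switched off. Without replicate 3, 33 genes were switched off, and 21 of these were below 1 FPKM in replicate 3 as well. In WT 29 genes were switched on and 247 off by the same rule, and in rin/tdr4-1 19 and 28. Of the 33 genes, 24 averaged 1 FPKM or more in rin-1 at 34 dpa, 22 in nor-1, 23 in tdr4-1, 15 in rin/tdr4-1 and 14 in WT. The median over all tested genes was 12.2 to 12.3 FPKM in rin-1 and 8.69 to 9.66 FPKM in WT at that age. Most tested genes thus passed 1 FPKM there, while 42.4% of the 33 did so in WT and 72.7% in rin-1. Per library, 15117 to 15315 genes of the whole table passed it in WT and 16503 to 16624 in rin-1, where 18906 were tested. Passing it is therefore no mark of the 33 genes, and in WT they did so less often than tested genes. In WT at 25 dpa, 18 of the 33 were below 1 FPKM in every library, where 17482 to 17556 genes per library were at 1 FPKM or more.

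Changed genes were spread over the genome. By the chromosome number in the identifiers, from 1 to 12, between 17.5% and 21.2% of the tested genes of a chromosome held as lower and between 9.06% and 11.2% as higher. The lowest share of falls was on chromosome 11 and the highest on chromosome 9. Of genes whose neighbour in identifier order held as lower, 20.9% did so too, beside 19.1% of all tested genes, and for rises the shares were 12.4% and 10.3%.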

How the data were processed

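Fruits of 9 groups, 3 libraries each, were profiled by RNA sequencing, and groups were read from sample titles. The deposited table holds FPKM values, with 1 column per library. The tools listed, per the submitters' processing notes, were Trimmomatic, STAR 2.5.4b, RSEM and DESeq2, with no role or order. Genome build and annotation: not given in the sources used here. Low values showed no steps of single reads (the commonest ratio to replicate 1 of dml2-3 at 25 dpa, in steps of 1%, held at most 5.35% of genes), so depth is unknown, no count test was run, and precision rests on the replicates. FPKM is a share of the library, so a few abundant genes can shift all others. No columns were identical (0 pairs).

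Values were taken as log2(FPKM + 1), which understates changes of low genes. Limma 3.58.1 (R 4.3.3) estimated the 9 group means and, with a variance trend, the spread from all 27 libraries, and 5 contrasts were adjusted by Benjamini-Hochberg over the 18906 genes kept. The fit was tried on simulated data with 200 changed genes, independent normal values and no library that stood apart. That trial therefore does not bear on how the fit handles replicate 3. When replicate 3 of dml2-3 at 25 dpa is left out, the other groups keep their values and only the shared spread changes. Of 34075 identifiers, 0 matched the 41476 genes of the RefSeq table (assembly SLM_r2.1), so the rule for named genes was used in its form without names, and gene lists and markers of fruit parts were not tested. The genes, classes and tests were chosen with earlier results of these data known. Alternatives were another pseudocount (0.1), no filter or a mean of at least 5 FPKM, size factors, quantile scaling, equal totals, only the groups compared, each library left out, a replicate block and library weights.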

Additional observations from a re-analysis of the deposited data

Results flagged for a closer look

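The change with age differed between genotypes in the test of the difference itself. Against WT this test called 13073 genes, and against rin/tdr4-1 it called 10097 genes. Among the named genes, the dml2-3 change departed from that of WT, on the log2(FPKM + 1) scale, by 6.16 for Solyc09g089930.3 and -6.18 for Solyc09g097760.3. From the rin/tdr4-1 change it departed by 6.01 and -5.91 for the same genes. Solyc08g045750.1 and Solyc11g010520.1 are listed at 0 in whole groups, so no size is given. Their limma adjusted p for the difference from WT were 0.00772 and 3.30e-09, and that of Solyc11g010520.1 for the difference from rin/tdr4-1 was 6.30e-10. These genes were ranked on the dml2-3 libraries that enter both differences.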

How the results depend on the processing

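The number of genes called between the dml2-3 ages was 6387, and it moved by over 1.5 times in 3 of the settings that keep all libraries. It was 10531 with library weights, which gave replicate 3 at 25 dpa a weight of 0.0343, 2285 in the fit to the 6 dml2-3 libraries alone, and 0 in that fit with a replicate block (limma, smallest adjusted p = 0.0548, 4630 genes at an unadjusted p under 0.05). The 396 WT-risen genes called lower became 612, 130 and 0 in these settings, and the 482 WT-fallen genes called higher became 1048, 177 and 0, or 809 with equal totals. With a block across all 27 libraries 6272 genes were called. Deviations of same-numbered dml2-3 libraries correlated at 0.10, -0.028 and 0.073, and not every library correlated best with its own number, so the numbers do not show a pairing.

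With 1 library left out, the calls ran from 4899 (without replicate 3 at 34 dpa) to 8398 (without replicate 3 at 25 dpa), WT-risen genes called lower from 318 to 554, and WT-fallen genes called higher from 393 to 920. The difference from WT ran from 12677 to 13740 calls and that from rin/tdr4-1 from 9368 to 11758. The share of the top 100 genes fell by 6.47 to 8.36 percentage points, and the change in the number of genes at 1 FPKM or more ran from -669 to -559. No named gene reversed in any setting, and both differences between genotypes kept their total calls within 1.5 times. The balance of directions did turn with scaling. Falls outnumbered rises in dml2-3 as deposited, and rises outnumbered falls with quantile scaling (3924 to 2627) and equal totals (4698 to 2109). The difference from WT turned with quantile scaling (5925 higher, 6648 lower), and that from rin/tdr4-1 with size factors (5034, 4952), quantile scaling (5350, 4935) and equal totals (6129, 3824). The calls of all 4 named genes between the ages ended in the blocked fit to 6 libraries. The difference of Solyc08g045750.1 from rin/tdr4-1 was called with library weights (adjusted p = 0.0134, 0.0134 to 0.288 over the alternatives). Depth is unknown, so absence at 0 FPKM cannot be bounded.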
